A study of Homo sapiens with 12 samples.

Results

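The 10 genes described are ligands, receptors and antagonists of the interleukin-1 family: IL1A, IL1B, IL1RN, IL18, IL33, IL36G, IL36RN, IL1R1, IL1R2 and IL1RAP. They were chosen by symbol, as entries whose annotation gave exactly 1 of these names, and all 10 were found, each with 1 probe set, among 18417 genes tested. Their messenger RNA was followed over 12 Affymetrix microarrays in SZ95 sebocytes, an immortalised human line from the sebaceous gland. The 4 groups of 3 replicate arrays were scramble siRNA untreated, scramble siRNA with UV-PAPC, OLR1 siRNA untreated, and OLR1 siRNA with UV-PAPC. All cells were grown in Sebomed medium and transfected by lipofection with Lipofectamine 2000, and UV-PAPC was given at 25 µg/ml, 24 h after transfection. UV-PAPC is a phosphatidylcholine carrying arachidonic acid that was oxidised with ultraviolet light, and OLR1 encodes LOX-1, a scavenger receptor for oxidised lipoprotein. All groups come from a single cell line, and the labels name no vehicle, no unoxidised PAPC and no second siRNA against OLR1. The lipid, its oxidation and its vehicle therefore cannot be told apart, nor can OLR1 loss and any other action of that siRNA. No label tells how long the cells were exposed to UV-PAPC, or whether the replicates came from different cultures. The p-values then reflect just the spread among the arrays at hand, which may be technical.

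The family is built around paired agonists and brakes. IL-1 alpha and IL-1 beta bind the receptor IL1R1, which recruits the accessory chain IL1RAP and signals through MYD88 and IRAK kinases to NF-kB. IL1RN encodes the receptor antagonist, which occupies IL1R1 without recruiting IL1RAP, and IL1R2 is a decoy that binds IL-1 without signalling. IL1RAP also serves the receptors for IL-33 and the IL-36 cytokines, whereas IL-18 uses its own accessory chain. IL-1 beta and IL-18 are made as precursors that caspase-1 cuts in inflammasomes, while IL-1 alpha and IL-33 are active when released from damaged epithelium. IL-1 made by keratinocytes and sebocytes is known for its part in skin inflammation and acne.

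The sequences shown are promoter windows of 4 members on which the results turn: both agonists, their antagonist and the accessory chain. They run from 250 bases before to 50 bases after a transcription start, 5′ to 3′ on the strand of the gene, and are from RefSeq on build GRCh38.p14. RefSeq windows matched 9 of the 10 members by symbol (18 windows), with IL18 the exception, and where a gene had several the first listed was taken. The windows are chr2:112784444-112784743 on the minus strand for IL1A, chr2:112836730-112837029 on the minus strand for IL1B, chr2:113117721-113118020 on the plus strand for IL1RN and chr3:190513835-190514134 on the plus strand for IL1RAP. Capitals mark matches, on either strand, to 1 of 5 motifs: NF-kB (GGG and CC with 5 bases between them), AP-1 (TGANTCA), C/EBP (TTNNGNAA), the heat shock element and the antioxidant response element (TGANNNNGC).
IL1A: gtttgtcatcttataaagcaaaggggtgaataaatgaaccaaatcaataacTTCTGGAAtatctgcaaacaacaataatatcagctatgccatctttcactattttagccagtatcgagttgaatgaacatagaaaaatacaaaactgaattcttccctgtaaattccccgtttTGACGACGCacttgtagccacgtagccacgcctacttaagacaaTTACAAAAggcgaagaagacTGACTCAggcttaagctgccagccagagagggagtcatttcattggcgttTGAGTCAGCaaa
IL1B: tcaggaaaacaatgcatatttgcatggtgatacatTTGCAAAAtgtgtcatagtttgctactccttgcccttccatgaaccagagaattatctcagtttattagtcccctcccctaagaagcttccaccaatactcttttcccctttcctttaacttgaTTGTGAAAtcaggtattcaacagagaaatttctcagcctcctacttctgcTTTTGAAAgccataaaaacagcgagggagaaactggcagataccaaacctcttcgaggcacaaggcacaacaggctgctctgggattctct
IL1RN: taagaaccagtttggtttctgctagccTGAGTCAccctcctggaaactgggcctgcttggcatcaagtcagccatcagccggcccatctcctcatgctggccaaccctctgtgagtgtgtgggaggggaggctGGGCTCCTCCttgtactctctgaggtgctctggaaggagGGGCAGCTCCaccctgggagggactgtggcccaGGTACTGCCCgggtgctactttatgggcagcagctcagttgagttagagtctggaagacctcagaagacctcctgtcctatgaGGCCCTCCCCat
IL1RAP: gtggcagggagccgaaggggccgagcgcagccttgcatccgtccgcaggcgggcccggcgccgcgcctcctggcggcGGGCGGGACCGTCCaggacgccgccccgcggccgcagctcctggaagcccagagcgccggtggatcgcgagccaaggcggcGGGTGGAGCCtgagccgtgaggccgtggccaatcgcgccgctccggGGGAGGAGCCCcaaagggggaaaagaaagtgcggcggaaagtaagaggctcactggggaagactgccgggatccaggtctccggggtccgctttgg
The printed window of IL1A, the first of 2, held 2 AP-1 matches, starting 12 bases before and 39 bases after its transcription start. The later one overlapped an antioxidant response element match. That window also held 2 C/EBP matches and another antioxidant response element match. In the other window of IL1A, set by another start, the AP-1 matches began 105 and 55 bases before that start. In the window of IL1B the only matches were 3 to C/EBP, none of them to NF-kB or AP-1. The printed window of IL1RN, the first of 3, had 4 NF-kB matches and 1 AP-1 match, and IL1RAP had 5 NF-kB matches, of which some overlap. Each of the other windows of IL1RN held 1 NF-kB match, 3 C/EBP matches and no AP-1 match. Of 34943 RefSeq windows of this length, 58.6% held the NF-kB pattern, 7.72% AP-1, 36.9% C/EBP, 41.8% the antioxidant response element and 0.489% the heat shock element. The patterns are loose, so a match is a description of letters and not a binding site, and a window without one says nothing about the factor.

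Values are log2 signals, 1 per probe set and array, with array medians from 5.73 to 5.83, and the number of arrays limits the precision. Comparisons were fitted with limma on all 18417 genes, and a gene is said to rise or fall where its Benjamini-Hochberg adjusted p was under 0.05. The siRNA target OLR1 lay between 5.35 and 6.19 on the 6 scramble arrays and between 4.33 and 4.66 on the 6 OLR1 siRNA arrays, so the siRNA label of every array was borne out. OLR1 did not pass with UV-PAPC (0.11 and -0.10, with overlapping groups), so it does not check the treatment labels. The cells carried epithelial genes at high signal (KRT8 from 12.40 to 12.54, EPCAM from 11.46 to 11.86) and the sebocyte genes PPARG (7.78 to 8.46), SCD (10.31 to 10.63) and KRT7 (11.03 to 11.39). The sebocyte genes AWAT2 (3.78 to 4.19), ELOVL3 (3.55 to 3.91) and MC5R (3.94 to 4.34) were low. Monocytes and macrophages are strong sources of IL1B, and the mean log2 signal of 10 of their markers was 4.97 to 5.02 in untreated scramble cells, 4.99 to 5.01 with UV-PAPC, 5.01 to 5.06 with OLR1 siRNA and 4.95 to 5.02 with both. The levels of these markers ran from PTPRC, the leukocyte antigen gene (3.12 to 3.47), and LYZ (3.17 to 3.58) through CSF1R (5.50 to 5.81) to CD68 (9.21 to 9.92). Markers of other cell types that changed were CD68 (a log2 change of 0.40 untreated and 0.44 with UV-PAPC), CDH5 (0.65 and 0.50) and MITF (0.26 and 0.43), which rose with OLR1 siRNA, and MITF fell with UV-PAPC under scramble siRNA (-0.23). Among sebocyte and epithelial markers PPARG fell (-0.47 under scramble and -0.35 under OLR1 siRNA) and PLIN2 rose (0.58 and 0.67) with UV-PAPC, as IL1B and IL1RN fell. CDH1 fell with UV-PAPC under scramble siRNA (-0.24), MUC1 fell with it under OLR1 siRNA (-0.34), and DGAT2 rose with OLR1 siRNA in treated cells (0.30). The part of these markers in the results was not tested.

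IL1B fell both with UV-PAPC and with OLR1 siRNA, by 1.31-fold to 1.73-fold. IL1A and IL1R1 fell in both comparisons made against untreated scramble cells. IL1RN fell with UV-PAPC under both siRNAs, and IL1RAP fell with OLR1 siRNA in both treatments. IL18, IL33, IL36G, IL36RN and IL1R2 did not pass in any comparison. In bulk RNA such as this, fewer cells that make a transcript and less of it in each cell cannot be told apart.

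**Figure D1:**
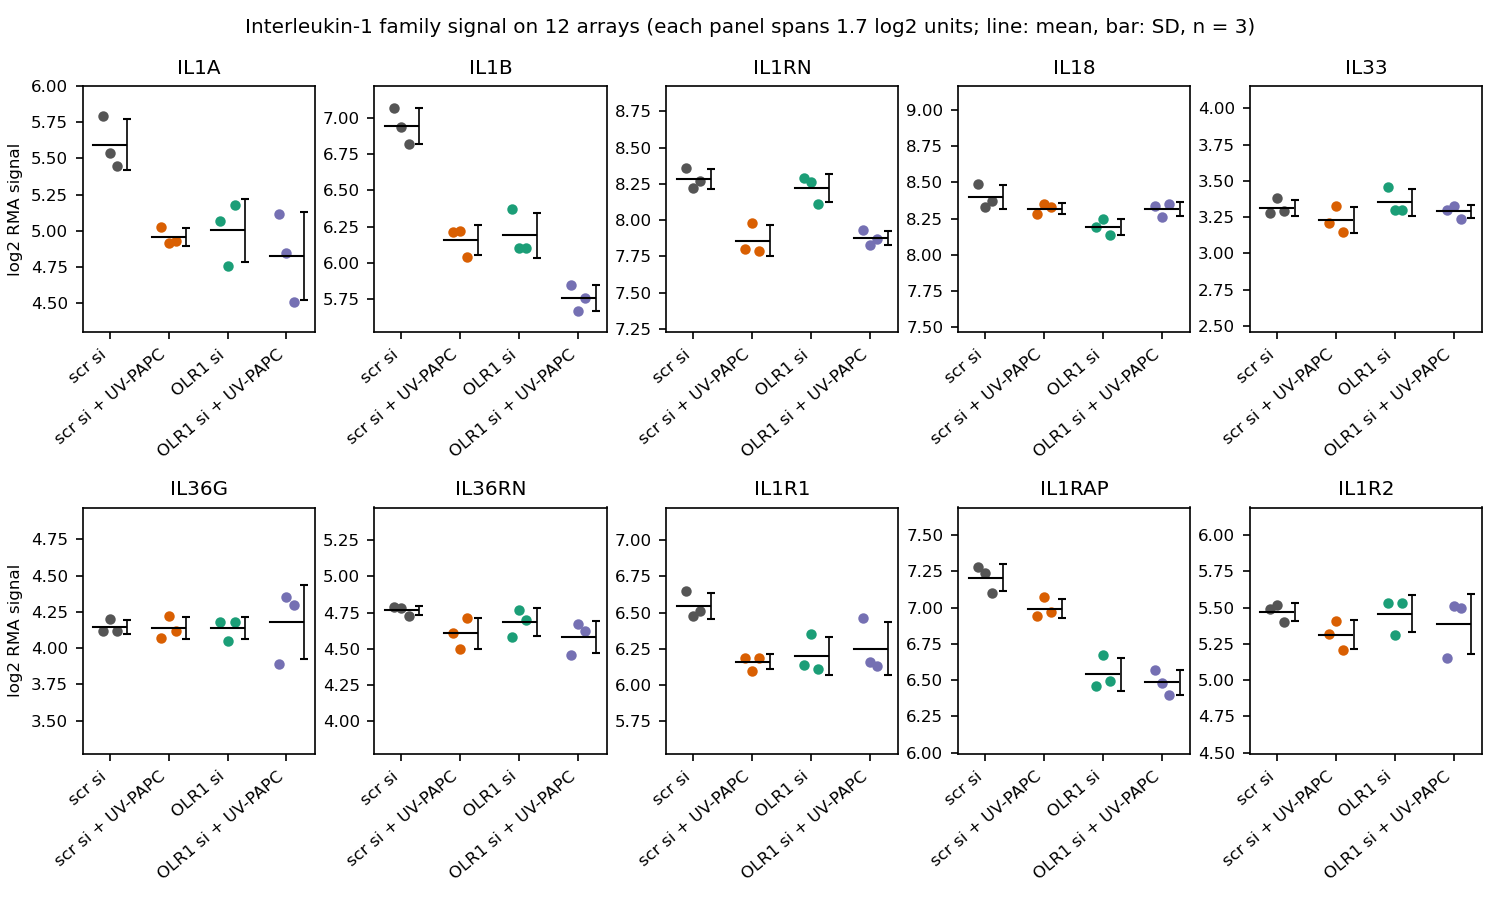
Log2 signal of the 10 members on each of the 12 arrays, with the mean as a line and the SD as a bar (n = 3); si is siRNA, scr is scramble and every panel spans the same height of log2 signal. IL1B steps from 6.82 to 7.07 in untreated scramble cells down to 5.67 to 5.85 with OLR1 siRNA and UV-PAPC, while IL1RAP separates by siRNA and IL1RN by treatment.

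IL1B, the secreted agonist best known from inflammasomes, was read by probe set 8054722. Its log2 signal was 7.07, 6.94 and 6.82 in untreated scramble cells and 6.21, 6.22 and 6.04 with UV-PAPC. With OLR1 siRNA it was 6.37, 6.10 and 6.10 untreated and 5.85, 5.67 and 5.76 with UV-PAPC. The untreated scramble arrays were the highest and the OLR1 siRNA arrays with UV-PAPC the lowest, without overlap with any other group. Between them, the groups that had received only UV-PAPC or only OLR1 siRNA overlapped, at means of 6.15 ± 0.10 and 6.19 ± 0.15 (SD, n = 3).

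UV-PAPC lowered IL1B 1.73-fold under scramble siRNA (a log2 change of -0.79, 95% interval -0.98 to -0.60, limma adjusted p = 4.13e-05). Under OLR1 siRNA the fall was 1.35-fold (-0.43, 95% interval -0.62 to -0.24, limma adjusted p = 0.00686). OLR1 siRNA lowered IL1B 1.69-fold in untreated cells (-0.76, 95% interval -0.95 to -0.56, limma adjusted p = 5.65e-05) and, with UV-PAPC, 1.31-fold (-0.39, 95% interval -0.59 to -0.20, limma adjusted p = 0.0102). IL1B was thus the member that passed in all 4 comparisons, and it did so with each of the 12 arrays left out in turn (adjusted p up to 0.0453 under OLR1 siRNA). The 4 comparisons share groups, so these passes are not independent of one another.

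IL1A encodes the agonist that epithelial cells store and release on damage, and lies next to IL1B. Its signal was low, at percentile 22.1 to 40.9 of the signals on its arrays. Probe set 8054712 gave log2 signals of 5.79, 5.54 and 5.45 in untreated scramble cells and 5.03, 4.92 and 4.93 with UV-PAPC. With OLR1 siRNA the signals were 5.07, 4.76 and 5.18 untreated and 5.12, 4.85 and 4.51 with UV-PAPC. Only the untreated scramble group stood apart; the other 3 groups overlapped one another, and the SD reached 0.31 in the group with OLR1 siRNA and UV-PAPC.

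IL1A fell 1.55-fold with UV-PAPC under scramble siRNA (a log2 change of -0.64, 95% interval -0.92 to -0.35, limma adjusted p = 0.00783) and 1.51-fold with OLR1 siRNA in untreated cells (-0.59, 95% interval -0.88 to -0.30, limma adjusted p = 0.0106). Both use the same untreated scramble arrays, so neither supports the other. Without replicate 1 of that group limma gave adjusted p = 0.0512 for the first and 0.0557 for the second, and without replicate 2 of the untreated OLR1 siRNA group the second had adjusted p = 0.0626. Under OLR1 siRNA the UV-PAPC response was -0.17 (95% interval -0.46 to 0.12), and with UV-PAPC the siRNA effect was -0.13 (95% interval -0.42 to 0.16), neither past the threshold.

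IL1RN, the receptor antagonist, followed the treatment. Its signals (probe set 8044574) were 8.36, 8.22 and 8.27 in untreated scramble cells and 7.80, 7.98 and 7.79 with UV-PAPC. With OLR1 siRNA they were 8.29, 8.26 and 8.11 untreated and 7.93, 7.83 and 7.87 with UV-PAPC. All 6 arrays with UV-PAPC lay below all 6 untreated arrays, while the groups of different siRNA overlapped within each treatment.

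UV-PAPC lowered IL1RN 1.35-fold under scramble siRNA (a log2 change of -0.43, 95% interval -0.59 to -0.27, limma adjusted p = 0.00167) and 1.27-fold under OLR1 siRNA (-0.34, 95% interval -0.50 to -0.18, limma adjusted p = 0.0093). The second value had adjusted p = 0.0539 without replicate 1 of the untreated OLR1 siRNA group. The siRNA effect on IL1RN was -0.07 (95% interval -0.23 to 0.09) in untreated cells and 0.02 (95% interval -0.14 to 0.18) with UV-PAPC, intervals that leave room for changes of either sign.

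Agonist and antagonist were also compared within arrays, as the log2 signal of IL1B minus that of IL1RN, set relative to the mean of untreated scramble cells; this measure was chosen after the values were seen. The difference was 0.05, 0.06 and -0.11 in untreated scramble cells, and -0.25, -0.42 and -0.41 with UV-PAPC. With OLR1 siRNA it was -0.58, -0.82 and -0.67 untreated and -0.74, -0.83 and -0.77 with UV-PAPC. The change was -0.69 with OLR1 siRNA in untreated cells, -0.42 in treated cells and -0.36 with UV-PAPC under scramble siRNA, with no overlap of the groups. Under OLR1 siRNA the UV-PAPC change was -0.09 and the groups overlapped. The two-sided exact permutation p was 0.1 for the 3 changes without overlap, the smallest that 3 arrays against 3 allow, and 0.3 for the last (0.16 and 0.3 after Benjamini-Hochberg adjustment over 8 such comparisons). After repeated quantile normalization the siRNA change in treated cells was -0.31, and after cyclic loess -0.30.

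IL1RAP, the accessory chain, was read by probe set 8084794 at 7.28, 7.24 and 7.10 in untreated scramble cells and 6.94, 7.07 and 6.97 with UV-PAPC. OLR1 siRNA brought it to 6.46, 6.67 and 6.49 untreated and 6.57, 6.48 and 6.40 with UV-PAPC. All 6 OLR1 siRNA arrays lay below all 6 scramble arrays, and the pair of OLR1 siRNA groups overlapped.

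OLR1 siRNA lowered IL1RAP 1.59-fold in untreated cells (a log2 change of -0.67, 95% interval -0.83 to -0.50, limma adjusted p = 4.18e-05) and, with UV-PAPC, 1.43-fold (-0.51, 95% interval -0.68 to -0.35, limma adjusted p = 0.000592). It passed with each array left out in turn in both comparisons. UV-PAPC gave -0.21 under scramble siRNA (95% interval -0.38 to -0.05, limma adjusted p = 0.125) with groups that did not overlap, and -0.06 under OLR1 siRNA (95% interval -0.22 to 0.11) with groups that did. For comparison, OLR1 itself fell 2.28-fold and 2.64-fold with its siRNA in untreated and treated cells.

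IL1R1, the signalling receptor, had signals of 6.65, 6.48 and 6.51 in untreated scramble cells and 6.19, 6.10 and 6.19 with UV-PAPC (probe set 8043995). With OLR1 siRNA they were 6.14, 6.35 and 6.11 untreated and 6.46, 6.16 and 6.13 with UV-PAPC. As for IL1A, the untreated scramble arrays were the high ones, and the other 3 groups overlapped. IL1R1 fell 1.31-fold with UV-PAPC under scramble siRNA (a log2 change of -0.39, 95% interval -0.58 to -0.19, limma adjusted p = 0.016) and 1.27-fold with OLR1 siRNA in untreated cells (-0.35, 95% interval -0.54 to -0.15, limma adjusted p = 0.0259).

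Both IL1R1 calls use the same untreated scramble arrays, so neither supports the other, and both depended on single arrays. The first had limma adjusted p = 0.0851 without replicate 1 of untreated scramble cells and 0.0624 without replicate 2 of scramble cells with UV-PAPC. The second had limma adjusted p = 0.101 and 0.0568 without replicates 1 and 3 of untreated scramble cells, and 0.0958 and 0.0925 without replicates 1 and 3 of the untreated OLR1 siRNA group. It also missed the threshold after cyclic loess (0.0536), and with all table entries the first and second had 0.0535 and 0.0677. Under OLR1 siRNA the response was 0.05 (95% interval -0.15 to 0.24), and with UV-PAPC the siRNA effect was 0.09 (95% interval -0.11 to 0.29).

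IL1R2, the decoy, ranged from 5.15 to 5.53 over the 12 arrays with a median of 5.45. Its log2 fold changes lay between -0.16 (95% interval -0.36 to 0.05) for UV-PAPC under scramble siRNA and 0.07 (95% interval -0.13 to 0.27) for OLR1 siRNA in treated cells, and its groups overlapped in all 4 comparisons. Set against IL1R1 within arrays, IL1RAP changed by -0.32 with OLR1 siRNA in untreated cells and by -0.61 in treated cells, without overlap (two-sided exact permutation p = 0.1 each, adjusted 0.16). With UV-PAPC it changed by 0.17 under scramble siRNA and by -0.11 under OLR1 siRNA, with overlap (exact permutation p = 0.2 and 0.3).

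**Figure D2:**
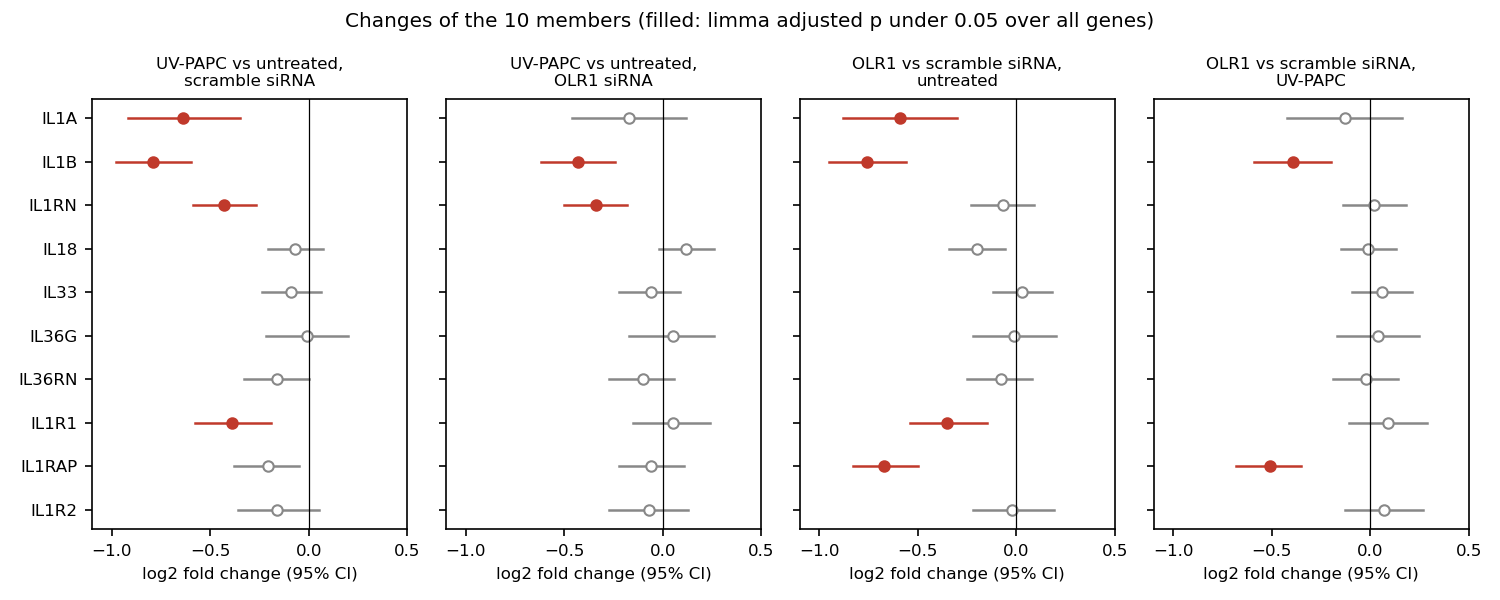
Log2 fold change of each member with its 95% interval in the 4 comparisons; filled points had a limma adjusted p under 0.05 over all 18417 genes. IL1B is filled in every panel, IL1RN in the panels of UV-PAPC, IL1RAP in those of OLR1 siRNA, and IL1A and IL1R1 in the panels that use the untreated scramble arrays.

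The remaining ligands changed little. IL18, the inflammasome-cut cytokine that induces interferon gamma, was at 8.49, 8.33 and 8.37 in untreated scramble cells and 8.28, 8.35 and 8.33 with UV-PAPC. With OLR1 siRNA it was at 8.19, 8.25 and 8.14 untreated and 8.34, 8.26 and 8.35 with UV-PAPC. The untreated OLR1 siRNA arrays were lower than every other array. The siRNA effect in untreated cells was -0.20 (95% interval -0.34 to -0.06, limma adjusted p = 0.0704), and the UV-PAPC response under OLR1 siRNA was 0.12 (95% interval -0.02 to 0.26, limma adjusted p = 0.355). The first of these passed with trend and robust eBayes (adjusted p = 0.0394), among the genes above the median signal (0.026), with quantile normalization repeated (0.0247) and with cyclic loess (0.0241).

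IL33, the alarmin that binds IL1RL1, ranged from 3.15 to 3.46, between the 2.5th and the 6.5th percentile of signals on its arrays. Probe sets differ in affinity, so that rank places the signal and not the transcript level. IL36G, the agonist of IL1RL2, ranged from 3.89 to 4.35, and IL36RN, its antagonist, from 4.46 to 4.79. No change of these 3 genes passed. The largest was -0.16 for IL36RN with UV-PAPC under scramble siRNA (95% interval -0.33 to 0.00, limma adjusted p = 0.274), where the groups did not overlap. A change in genes of such low signal is hard to read on these arrays. This limit touches IL1A too, whose lower arrays (from 4.51) reach the range of IL36RN.

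Counted over the family, 4 of 10 members fell with UV-PAPC under scramble siRNA and 0 rose, where 4.64% of all genes fell and 2.67% rose (7.31% in all). Under OLR1 siRNA 2 fell and 0 rose, against 3.25% and 3.46% of all genes (6.71% in all). With OLR1 siRNA 4 fell and 0 rose in untreated cells, against 4.42% and 5.29% (9.71% in all), and 2 fell and 0 rose with UV-PAPC, against 4.56% and 7.94% (12.5% in all). In that last comparison 1462 genes rose and 840 fell, and with arrays centred on their medians 1914 rose and 620 fell. The excess of rises was smaller with repeated quantile normalization (1165 rose and 944 fell) and with cyclic loess (1176 and 942). The median log2 fold change of the 10 members was -0.187, -0.0666, -0.142 and 0.00766 in that order, and that of all genes -0.00196, -0.0134, -0.00142 and -0.0125. Without replicate 1 of untreated scramble cells the counts for UV-PAPC under scramble siRNA and for OLR1 siRNA in untreated cells were both 2, and without replicate 1 of the untreated OLR1 siRNA group the count under OLR1 siRNA was 1. Groups that did not overlap were also counted. With UV-PAPC under scramble siRNA 6 members lay wholly lower, namely the 4 that fell, IL36RN and IL1RAP, where 14% of all genes lay lower and 10.1% higher (24.1% in all). Under OLR1 siRNA IL1B and IL1RN lay lower and IL18 higher, against 12.8% and 10.9% (23.7% in all). With OLR1 siRNA 5 members lay lower in untreated cells, the 4 that fell and IL18, against 13.7% lower and 15% higher (28.7% in all). In treated cells IL1B and IL1RAP lay lower, against 14.1% lower and 16.6% higher (30.8% in all). The members were proposed with results of these data in view, so their counts describe them and do not test the family.

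Whether the UV-PAPC response differed by siRNA was tested directly, and this passed for 0 of 10 members and 0% of all genes, in limma and in its version with trend and robust eBayes. At an unadjusted p under 0.05 there were 3 members, IL1A, IL1B and IL1R1, and 1004 genes, which is 5.45% of all. The response of IL1R1 differed by 0.44 (95% interval 0.16 to 0.71), that of IL1A by 0.46 (95% interval 0.06 to 0.87) and that of IL1B by 0.36 (95% interval 0.09 to 0.63), with limma adjusted p = 0.86, 0.904 and 0.889. Under OLR1 siRNA the responses were 0.05 for IL1R1, -0.17 for IL1A and -0.43 for IL1B. All 3 genes had their highest mean in untreated scramble cells, as had IL1RN, IL18, IL36RN, IL1R2 and IL1RAP. Those arrays enter both the falls and these differences, so the differences are not separate evidence. For IL1RN the difference was 0.09 (95% interval -0.14 to 0.31) and for IL1RAP 0.15 (95% interval -0.08 to 0.39). None of these differences is shown at the threshold, and none is shown to be 0.

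On the reference assembly IL1A, IL1B, IL37, IL36G, IL36A, IL36B, IL36RN, IL1F10 and IL1RN are consecutive protein-coding genes of chromosome 2. None of the 4 ligand genes that are not members, IL37 (which dampens inflammation), IL36A, IL36B and IL1F10, passed in any comparison, with log2 fold changes from -0.25 to 0.13 in the 4 comparisons. Of all genes 7.31%, 6.71%, 9.71% and 12.5% were called in them, so 0 calls among 4 genes says little. Without replicate 3 of OLR1 siRNA with UV-PAPC, 1 of the 4 fell with OLR1 siRNA in treated cells. A second run on the same chromosome holds IL1R2, IL1R1, IL1RL2, IL1RL1, IL18R1 and IL18RAP. Within it IL1RL1, the IL-33 receptor, rose with OLR1 siRNA.

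IL1RL1 was at 6.81, 6.63 and 6.83 in untreated scramble cells and 6.72, 6.66 and 6.30 with UV-PAPC. With OLR1 siRNA it was at 7.44, 7.36 and 7.20 untreated and 7.32, 7.17 and 7.22 with UV-PAPC, above every scramble array. It rose 1.5-fold in untreated cells (a log2 change of 0.58, 95% interval 0.37 to 0.80, limma adjusted p = 0.00157) and 1.59-fold in treated cells (0.67, 95% interval 0.46 to 0.89, limma adjusted p = 0.000605). IL1RL1 and its partner chain IL1RAP thus moved in opposite directions with the siRNA. Of the 8 other receptors and binding proteins, which include IL1RL1, 0 were called with UV-PAPC under scramble siRNA and 1 rose under OLR1 siRNA. With OLR1 siRNA 1 rose in untreated cells, and 1 rose and 1 fell in treated cells. Of all genes 7.31%, 6.71%, 9.71% and 12.5% were called in that order. IL18R1 rose with UV-PAPC under OLR1 siRNA (0.37, limma adjusted p = 0.0323). SIGIRR, an inhibitory receptor, fell with OLR1 siRNA in treated cells (-0.27, limma adjusted p = 0.0131). The SIGIRR call was lost without replicate 1 of scramble siRNA with UV-PAPC and without replicate 2 of OLR1 siRNA with UV-PAPC. The IL18R1 call was lost without replicate 1 or 3 of the untreated OLR1 siRNA group and without each array of OLR1 siRNA with UV-PAPC (limma adjusted p = 0.0702 to 0.126).

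**Figure D3:**
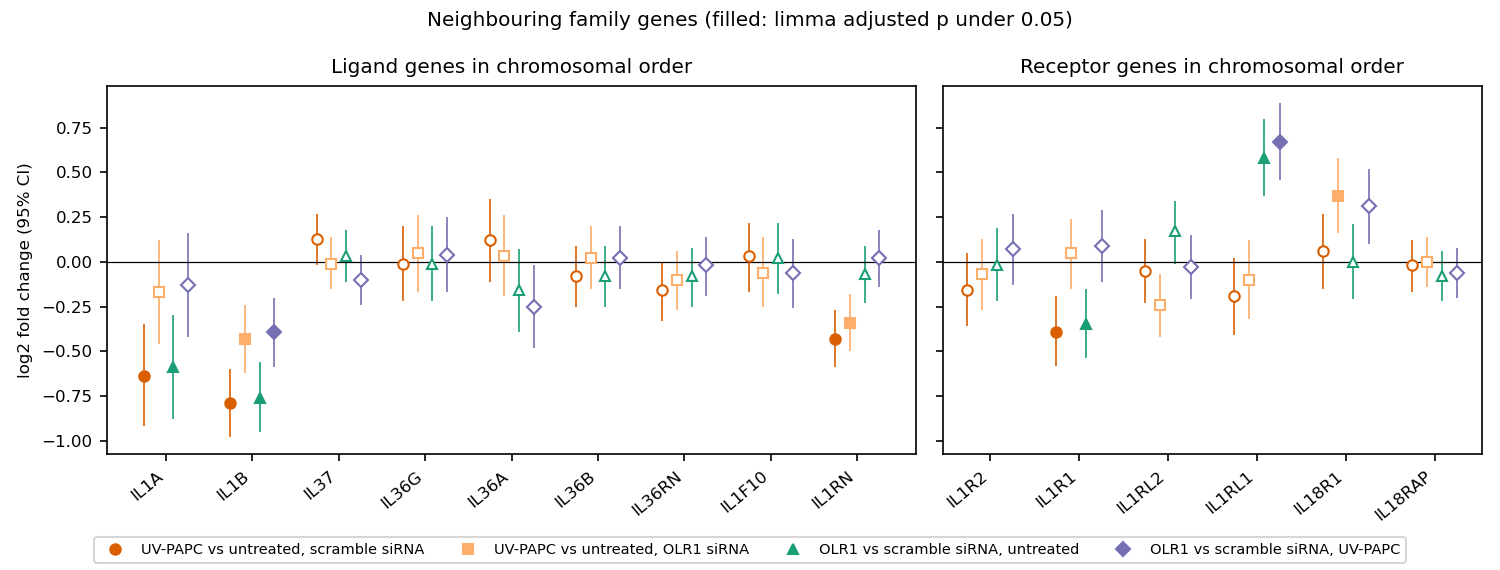
Log2 fold change with 95% interval of the ligand genes and the receptor genes of chromosome 2, each in chromosomal order and not to scale of distance; marker shape and colour give the comparison, and filled markers had a limma adjusted p under 0.05. The ligand genes between IL1B and IL1RN lie between -0.25 and 0.13 with open markers, and IL1RL1 has filled markers above 0 in both comparisons of siRNA.

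Processing and release genes were followed in a list of 26, of which 24 were measured. With OLR1 siRNA NEK7, a kinase that licenses the NLRP3 inflammasome, was the gene of the list that moved most. It lay at 8.21, 8.04 and 8.16 in untreated scramble cells and 8.15, 8.11 and 7.96 with UV-PAPC. With OLR1 siRNA it lay at 6.75, 6.76 and 6.85 untreated and 7.14, 6.79 and 6.80 with UV-PAPC. NEK7 fell 2.55-fold in untreated cells (a log2 change of -1.35, 95% interval -1.54 to -1.16, limma adjusted p = 2.64e-07) and 2.25-fold in treated cells (-1.17, 95% interval -1.36 to -0.97, limma adjusted p = 1.96e-06), among the 10 genes of lowest p in each. The siRNA target OLR1 fell 2.28-fold and 2.64-fold in these comparisons, less than NEK7 in untreated cells and more in treated cells.

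CASP4, the inflammatory caspase that senses bacterial lipopolysaccharide, rose with OLR1 siRNA (0.25 and 0.30) and with UV-PAPC under OLR1 siRNA (0.25). P2RX7, the ATP-gated channel that triggers inflammasomes, fell (-0.24) and CARD16, a caspase-1 inhibitor, rose (0.29, with overlapping groups) with the siRNA in treated cells. With UV-PAPC the protease inhibitor gene SERPINB1 fell under both siRNAs (-0.40 and -0.43), and the pore-forming gasdermin gene GSDMC fell under scramble siRNA (-0.44). In all, 2 fell with UV-PAPC under scramble siRNA and 1 rose and 1 fell under OLR1 siRNA, while 1 rose and 1 fell with the siRNA in untreated and 2 and 2 in treated cells. These are counts of 24, and of all genes 7.31%, 6.71%, 9.71% and 12.5% were called in that order, so the list lay near the share of all genes. Over the arrays left out in turn the calls of this list numbered 1 to 2, 1 to 3, 1 to 4 and 2 to 4. The CASP4 rise in untreated cells was lost without replicate 1 or 3 of untreated scramble cells and without any one array of the untreated OLR1 siRNA group. Its rise with UV-PAPC was lost without any one array of that same group, without replicate 1 of OLR1 siRNA with UV-PAPC, with all table entries and with only the 6 arrays compared. The GSDMC call was lost without replicate 1 or 3 of untreated scramble cells and without replicate 1 or 3 of scramble cells with UV-PAPC (limma adjusted p = 0.0659 to 0.11).

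Of 22 measured genes that signal below the receptor, 3 fell with UV-PAPC under scramble siRNA, namely NFKB1 (-0.49), the kinase CHUK (-0.34) and the adaptor TAB3 (-0.27). NFKB1 alone fell under OLR1 siRNA (-0.35). Of all genes, 4.64% and 3.25% fell in these comparisons. With OLR1 siRNA NFKB1 (0.50), the adaptor TAB2 (0.39) and CHUK (0.31) rose in untreated cells, where IRAK2 (-0.33) and TNIP1, a brake on NF-kB (-0.30), fell. In treated cells NFKB1 (0.65), TAB2 (0.48), CHUK (0.46), MAP3K7 (0.23) and IKBKB (0.21) rose. In each comparison of siRNA 17 of the 22 did not pass, and the median log2 change of the list was 0.0139 and 0.0334. Of all genes, 5.29% rose and 4.42% fell in untreated cells, and 7.94% rose in treated cells. The signals of NFKB1, which encodes the p50 subunit of NF-kB, were 8.98 to 9.02 in untreated scramble cells, 8.56, 8.44 and 8.52 with UV-PAPC, 9.60, 9.56 and 9.34 with OLR1 siRNA and 9.10, 9.18 and 9.19 with both.

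NFKB1 and IL1B both fell with UV-PAPC, while with OLR1 siRNA NFKB1 rose and IL1B fell. The count of 3 with UV-PAPC was 1 without replicate 1 or 3 of untreated scramble cells and without replicate 1 or 3 of scramble cells with UV-PAPC, and the count of 1 under OLR1 siRNA was 0 without replicate 1 of the untreated OLR1 siRNA group. The 5 rises in treated cells were 3 without any one array of scramble siRNA with UV-PAPC, without replicate 1 or 2 of the untreated OLR1 siRNA group, and without replicate 1 or 3 of OLR1 siRNA with UV-PAPC.

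Of 34 measured genes that IL-1 is known to induce in epithelial cells, 7 fell and 1 rose with UV-PAPC under scramble siRNA, and 6 fell and 0 rose under OLR1 siRNA. Of all genes 4.64% fell and 2.67% rose in the first comparison, and 3.25% fell and 3.46% rose in the second. The other 26 and 28 genes did not pass. Among them were IL6 (-0.07 and -0.05), CXCL8 (-0.05 and 0.26), CCL20 (-0.11 and 0.07), PTGS2 (-0.02 and -0.02) and TNF (0.09 and -0.10). The cytokine gene LIF was at 8.44, 8.52 and 8.58 in untreated scramble cells and 7.43, 7.43 and 7.35 with UV-PAPC. TNFAIP3, the A20 feedback inhibitor of NF-kB, was at 8.75, 8.85 and 8.72 untreated and 7.85, 7.95 and 7.74 with UV-PAPC. LIF fell by 1.11 and IL24, another cytokine gene, by 1.11, while TNFAIP3 fell by 0.93 on the log2 scale. BCL3 (-0.57), the inhibitor gene NFKBIA (-0.52), IER3 (-0.39) and the adhesion gene ICAM1 (-0.27) fell as well. Serum amyloid SAA1 was the rise (0.47, limma adjusted p = 0.0439), a call lost in 6 of the 12 fits with an array left out (adjusted p up to 0.205). The call was also lost with all table entries (limma adjusted p = 0.132), repeated quantile normalization (0.0628) and cyclic loess (0.0622). SAA1 signals were low, at 3.69, 3.67 and 3.22 in untreated scramble cells and 4.11, 4.01 and 3.86 with UV-PAPC.

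Under OLR1 siRNA the falls were LIF (-0.76), IL24 (-0.72), BCL3 (-0.69), TNFAIP3 (-0.58), IER3 (-0.40) and NFKBIA (-0.35). The median log2 change over the list was -0.0574 and -0.041 under scramble and OLR1 siRNA. OLR1 siRNA itself gave 4 falls in untreated cells, TNFAIP3 (-0.40), ICAM1 (-0.38), CSF3 (-0.35) and IER3 (-0.33), beside a rise of SAA1 (0.44, limma adjusted p = 0.0499), a call lost in 8 of the 12 fits with an array left out (adjusted p up to 0.221), and with array weights, all table entries, quantile normalization, cyclic loess or only the 6 arrays compared. In treated cells IER3 fell (-0.35) and LIF rose (0.31). Of all genes 9.71% were called in untreated and 12.5% in treated cells. The LIF call was lost without replicate 1 or 3 of either group compared (limma adjusted p = 0.0523 to 0.106). It was also lost with all table entries (0.0597) and after cyclic loess (0.0556). The CSF3 call was lost without replicate 2 of untreated scramble cells (limma adjusted p = 0.0884) or of the untreated OLR1 siRNA group (0.104), and with all table entries (0.0548).

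**Figure D4:**
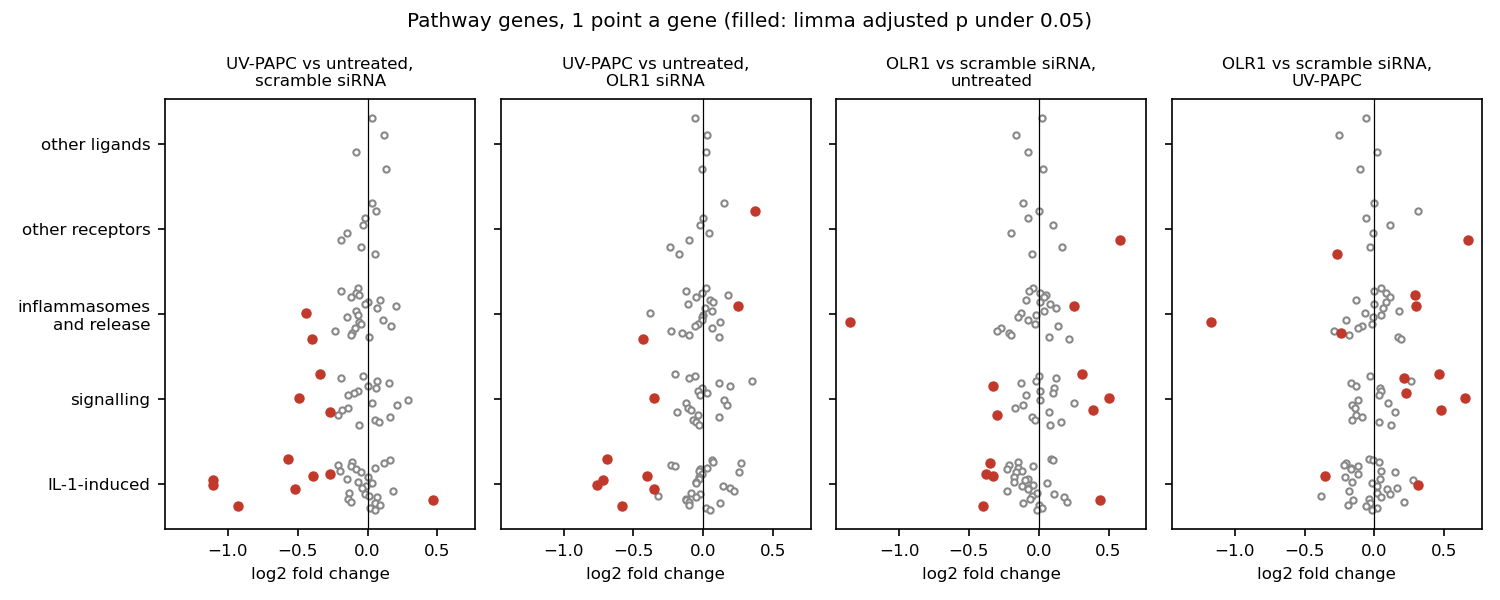
Log2 fold change of each measured gene of the 5 pathway lists, 1 point a gene, in the 4 comparisons; filled points had a limma adjusted p under 0.05. Filled points of the IL-1-induced list lie left of 0 with UV-PAPC apart from SAA1, NEK7 is the point near -1.35 and -1.17 in the panels of siRNA, and the filled signalling points lie right of 0 in treated cells with OLR1 siRNA.

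The genes whose signal most resembled that of IL1B over the 12 arrays were B4GALT5 (Pearson's r 0.987), UGCG (0.984), THBS1 (0.97), CD44 (0.968) and CCN3 (0.965). Those most like IL1RN were LIMA1 (0.983), CDC42SE1 (0.975), DAPK1, ITPRID2 (0.972 each) and MAP3K1 (0.969). Those most like IL1A reached lower values, with FMN1 (0.919), PTPN12 (0.912), B3GNT5 (0.903), TTC39B and ARHGEF37 (0.898 each). These correlations were picked as the highest and are descriptions over arrays that share groups and normalization. Once group means were removed, r ran from 0.439 (THBS1) to 0.745 (B4GALT5) for the genes like IL1B. For those like IL1RN it ran from 0.712 (MAP3K1) to 0.903 (LIMA1), and for those like IL1A from 0.529 (ARHGEF37) to 0.715 (PTPN12). Among the members, IL1A and IL1B had r 0.876 over the 12 arrays and 0.446 once group means were removed, and IL1B and IL1RN had 0.755 and 0.646.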

How the data were processed

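RNA of 12 arrays (Affymetrix HuGene 1.0 ST) was summarised by the authors to log2 signals, used here as deposited. The submitters' processing notes name RMA and the Affymetrix Expression Console (version 1.3.1.187). RMA corrects background and sets arrays to a common distribution, so shifts shared by all genes are largely removed. The deposited signals still differed between arrays, with medians from 5.73 to 5.83, and repeated scaling changed the counts of genes called. Of 33297 entries, 19460 had 1 gene symbol, 1754 several and 12083 none in the platform annotation. The probe set of highest mean stood for each of 18417 genes. Group means of all 12 arrays were fitted with limma 3.58.1 (R 4.3.3, default eBayes, 8 residual degrees of freedom), with Benjamini-Hochberg adjustment over all genes and a threshold of 0.05; the code was tested on simulated data.

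Members and gene lists were chosen with earlier results of these data known. Named were all members, OLR1, in each comparison up to 8 pathway genes past the threshold without overlap of the groups, and 5 genes most like each of IL1A, IL1B and IL1RN; other pathway genes past the threshold were named after their values were seen. Alternatives changed the eBayes setting, array weights, filter, probe set rule, scaling, arrays fitted and replicate block.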

Additional observations from a re-analysis of the deposited data

How the results depend on the processing

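With 3 arrays a group, leaving out 1 array gave 2 to 4 members past the threshold for UV-PAPC under scramble siRNA (868 to 1340 genes in all), 1 to 2 under OLR1 siRNA (865 to 1397), 2 to 4 for OLR1 siRNA in untreated cells (1101 to 2055), 2 to 2 in treated cells (1267 to 2254) and 0 for the difference of the responses. Among genes above the median signal, a filter that only 3 members pass (IL1RN, IL18 and IL1RAP), the counts were 1, 1, 2 and 1. The other members, IL1B, IL1A and IL1R1 among them, were not tested there. Of all genes kept, 555 rose and 1097 fell with UV-PAPC under scramble siRNA, and 738 and 751 under OLR1 siRNA. With OLR1 siRNA 1280 rose and 956 fell in untreated cells, and 1892 and 867 in treated cells. Each number exceeds that without the filter, from fewer genes, so the counts among 3 members say little. Replicate numbers did not pair the arrays: same-numbered arrays had correlations of deviations from -0.221 to 0.113, and 3 of 12 arrays were best matched by their own number. With the replicate number as a block 4, 2, 4, 2 and 0 members passed, and no call of a member changed.

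Signs turned only for values that had not passed. For OLR1 siRNA in untreated cells, centring gave 0.01 for IL36G and 0.0042 for IL1R2, and IL1R2 was 0.03 after quantile normalization and 0.02 after cyclic loess. In treated cells IL18 was 0.02 with array weights and 0.02 with centring, IL36RN 0.01 with centring, 0.03 after quantile normalization and 0.04 after loess, and IL1RN -0.02 and -0.04 after the last pair. The cause was not tested. With an array left out, UV-PAPC under scramble siRNA gave -0.05 to 0.03 for IL36G and -0.08 to 0.35 for OLR1. Under OLR1 siRNA it gave -0.04 to 0.19 for IL36G, -0.06 to 0.12 for IL1R1, -0.14 to 0.05 for IL1R2 and -0.10 to 0.0046 for IL1RAP. OLR1 siRNA in untreated cells gave -0.02 to 0.06 for IL33, -0.04 to 0.03 for IL36G and -0.05 to 0.06 for IL1R2. In treated cells it gave -0.27 to 0.03 for IL1A, -0.01 to 0.08 for IL1RN, -0.03 to 0.02 for IL18, -0.04 to 0.19 for IL36G, -0.08 to 0.04 for IL36RN and -0.01 to 0.15 for IL1R1. The difference of the responses was -0.01 to 0.08 for IL33 and -0.03 to 0.20 for IL36G. The within-array change of IL1B against IL1RN in treated cells was -0.31 after quantile normalization and -0.30 after loess. Measures within arrays and the alternatives for pathway genes were chosen after seeing the data.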
